A study of Homo sapiens with 9 samples.

Results

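The 54 genes described here code for the non-collagen part of the extracellular matrix and for the enzymes that crosslink it. They were chosen by name with earlier results of these data known, and all were found by Ensembl identifier among the 60664 genes of the count table. They fall into laminins and nidogens (12 genes), fibrillins and elastic-fibre proteins (12), proteoglycans (14), fibronectin and matricellular proteins (11) and lysyl oxidases (5). The study asked which transcripts of Huh-7, a human hepatocellular carcinoma line, differ when 1 of the vault RNAs, short noncoding RNAs named for the vault particle, is missing. Polyadenylated RNA was sequenced from wild-type cells (WT), from cells that lack vtRNA1-1 (1-1 KO) and from cells that lack vtRNA1-2 (1-2 KO), each with 3 libraries. The cells were untreated and were grown to 80% confluency with 10% serum. The WT and 1-1 KO cells came from another laboratory, and 1-2 KO was made from these WT cells with CRISPR/Cas9 as a single cell clone. Each knockout is therefore 1 cell line, so that the missing vault RNA and any other difference between the lines cannot be told apart, and p-values measure only the spread between libraries of a line.

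Matrix proteins are secreted and assembled outside the cell. Laminins are trimers of an alpha, a beta and a gamma chain that form the sheet of a basement membrane, which nidogens and the heparan sulfate proteoglycan perlecan join to collagen. Fibrillins polymerize into microfibrils that carry elastin and hold latent TGF-beta through LTBP proteins, lysyl oxidases oxidize lysines of collagen and elastin so that fibres crosslink, and matricellular proteins such as tenascin-C and osteopontin bind cells and matrix without being part of its scaffold. In normal liver most of these genes are expressed by stellate, endothelial and biliary cells, while hepatocytes secrete fibronectin.

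The libraries held between 32384469 and 41782387 counted fragments. No read was counted for VTRNA1-2 in any library and at most 1 for VTRNA1-1, so these mRNA libraries do not test the knockouts themselves. All 7 hepatocyte markers (ALB, AFP, APOA1, APOB, TTR, SERPINA1 and HNF4A) were above 1 CPM (counts scaled to library size) in every line, with a summed level of 10970 to 11710 CPM in WT, 25500 to 26370 in 1-1 KO and 17870 to 19550 in 1-2 KO. These 7 did not all move alike. ALB stood at 2479 to 2589 CPM in WT, 9283 to 9707 in 1-1 KO and 4415 to 4907 in 1-2 KO. In the same order AFP was at 1710 to 1837, 8024 to 8346 and 7037 to 7649 CPM. TTR was at 109 to 114, 309.8 to 364 and 69.1 to 74.7 CPM, and HNF4A at 253.5 to 267, 244.5 to 252 and 282 to 314.6 CPM. APOB in 1-2 KO overlapped WT. Of 9 fibroblast and stellate markers, 6, 5 and 6 exceeded a mean of 1 CPM, and their sum was 43.2 to 45.5 CPM in WT, 99.6 to 111 in 1-1 KO and 68.6 to 75.7 in 1-2 KO, with THY1 and POSTN at or near 0. These markers did not move together, since COL1A2 (19.2 to 19.7 CPM in WT) and PDGFRA (5.58 to 6.41) stood at 60.4 to 70.3 and 21.0 to 21.7 CPM in 1-1 KO, while ACTA2 was at 2.22 to 3.15 CPM in WT and 0.0486 to 0.123 in 1-1 KO and DES at 0.293 to 0.634 and 0 to 0.0981. The 5 endothelial markers summed to 7.42 to 8.04, 6.43 to 7.22 and 0.831 to 1.11 CPM, nearly all of it PECAM1 with KDR near 0, and the 4 macrophage markers to 1.48 to 1.59, 3.50 to 3.76 and 2.67 to 3.09 CPM with C1QA at or near 0. The part of these markers in the results below was not tested. Library 3 of WT and library 1 of 1-2 KO stood apart in GC-rich genes, since the 2436 tested genes whose transcript holds at least 60% G and C lay at a median log2 deviation of 0.10 and 0.0999 from their line, against -0.0708 to 0.0175 in the other libraries.

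The sequences just before the transcription start are shown for the 4 members around which the results turn, FBN2 and TNC, which fell in 1-1 KO and rose in 1-2 KO, GPC4, which rose in both, and VCAN, which fell in both. They are RefSeq promoters (GRCh38.p14) and begin 250 bases before the start, with bases inside an annotated exon left out. The FBN2 window lies inside the annotated gene span (chr5:128257909-128659185), so its RefSeq start differs from the end of that span. Capitals mark CpG dinucleotides.

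FBN2, chr5:128538246-128538495, minus strand: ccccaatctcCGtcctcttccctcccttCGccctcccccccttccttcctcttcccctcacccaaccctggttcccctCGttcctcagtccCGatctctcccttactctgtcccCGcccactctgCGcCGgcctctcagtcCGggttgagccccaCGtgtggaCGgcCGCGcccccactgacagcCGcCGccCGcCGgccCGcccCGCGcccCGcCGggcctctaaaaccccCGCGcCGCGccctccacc
TNC, chr9:115118208-115118407, minus strand: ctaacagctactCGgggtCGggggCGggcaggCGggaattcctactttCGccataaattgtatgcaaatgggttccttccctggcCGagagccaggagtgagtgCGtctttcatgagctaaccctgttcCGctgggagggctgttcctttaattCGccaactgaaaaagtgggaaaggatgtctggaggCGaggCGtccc
GPC4, chrX:133415490-133415739, minus strand: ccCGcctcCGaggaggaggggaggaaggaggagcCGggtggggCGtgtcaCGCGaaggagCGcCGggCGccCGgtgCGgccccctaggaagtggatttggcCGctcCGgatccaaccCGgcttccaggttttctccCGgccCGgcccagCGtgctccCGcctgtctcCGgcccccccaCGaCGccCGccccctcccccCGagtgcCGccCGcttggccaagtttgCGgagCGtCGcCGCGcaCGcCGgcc
VCAN, chr5:83471494-83471617, plus strand: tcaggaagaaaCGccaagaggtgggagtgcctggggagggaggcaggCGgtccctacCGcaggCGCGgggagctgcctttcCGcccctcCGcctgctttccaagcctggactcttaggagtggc

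Promoters were given for 44 of the 54 members. In the whole 250-base window FBN2 had 25 CpG and GPC4 had 32, numbers that 21.6% and 9.52% of all 35116 promoters reach, while TNC and VCAN had 12 each, which 48.5% reach. The median was 21.5 CpG over the members and 11 over all promoters. The motif TGANTCA, which AP-1 factors bind, occurred on either strand in 2 of the 44 windows and in 6.57% of all promoters, and TATAAA, the core of the TATA box, in 2 of the 44 and in 10.7%. None of the 4 windows shown held either run of letters, and no binding was measured here.

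Of the 54 members, 49 had enough counts for a test. The other 5 (LAMA1, LAMA2, LAMC3, DCN and THBS2) had at most 8 counts in any library, too few to detect a difference at this depth. In 1-1 KO against WT, 30 of the 49 tested members were higher and 15 lower at an adjusted p under 0.05 (edgeR quasi-likelihood test, Benjamini-Hochberg over 17207 genes). Of all genes tested, 32.5% were higher and 30.9% lower. In either direction, 91.8% of the tested members and 63.4% of all genes were called. The median log2 fold change was 0.39 over the members and 0.01 over all genes, and the median size without sign was 0.742 against 0.352. In 1-2 KO against WT, 33 of the 49 were higher and 8 lower (83.7% called), against 28.2% and 26.2% of all genes (54.4% called). The median log2 fold change was 0.48 against 0.02 and the median size 0.773 against 0.273. The direct comparison of 1-2 KO with 1-1 KO had 23 of the 49 higher and 19 lower (85.7% in either direction). Of all genes, 33.1% were higher and 32.2% lower (65.3% in either direction). The median log2 fold change was 0.16 over the members against 0.01 over all genes. That median over the members was 0.0816 without 1-2 KO library 1. It turned to -0.10 when the median of the 50 nearest tested genes was subtracted from each member. Both comparisons with WT share the same 3 WT libraries. Since the members were chosen with earlier results of these data known, their shares and medians are descriptions and not a test of the list. Called in both were 38 of the 49 tested members, against 39% of all genes. Of the same 49, 16 were called in opposite directions, against 11.7% of all genes. In such bulk samples a change in the number of cells that express a gene and a change in the RNA per cell cannot be told apart.

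Changes of at least 2-fold (absolute log2 fold change of at least 1) were called for 17 members in 1-1 KO, 13 of them upward, for 18 in 1-2 KO, 14 of them upward, and for 16 between the knockouts, 8 each way. Among all genes tested, such changes made up 13.4%, 11.7% and 14.1%. The upward members in both knockouts include LTBP4, EMILIN1, BGN and LOXL1, which had at most 10 counts in each WT library. These genes passed the count filter through knockout libraries, where they are higher, so a fall against WT could hardly have been called. They are also among the members counted as higher above. The members named with their values are those that changed by at least this much against WT and the 2 highest per transcript length in each group.

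**Figure D1:**
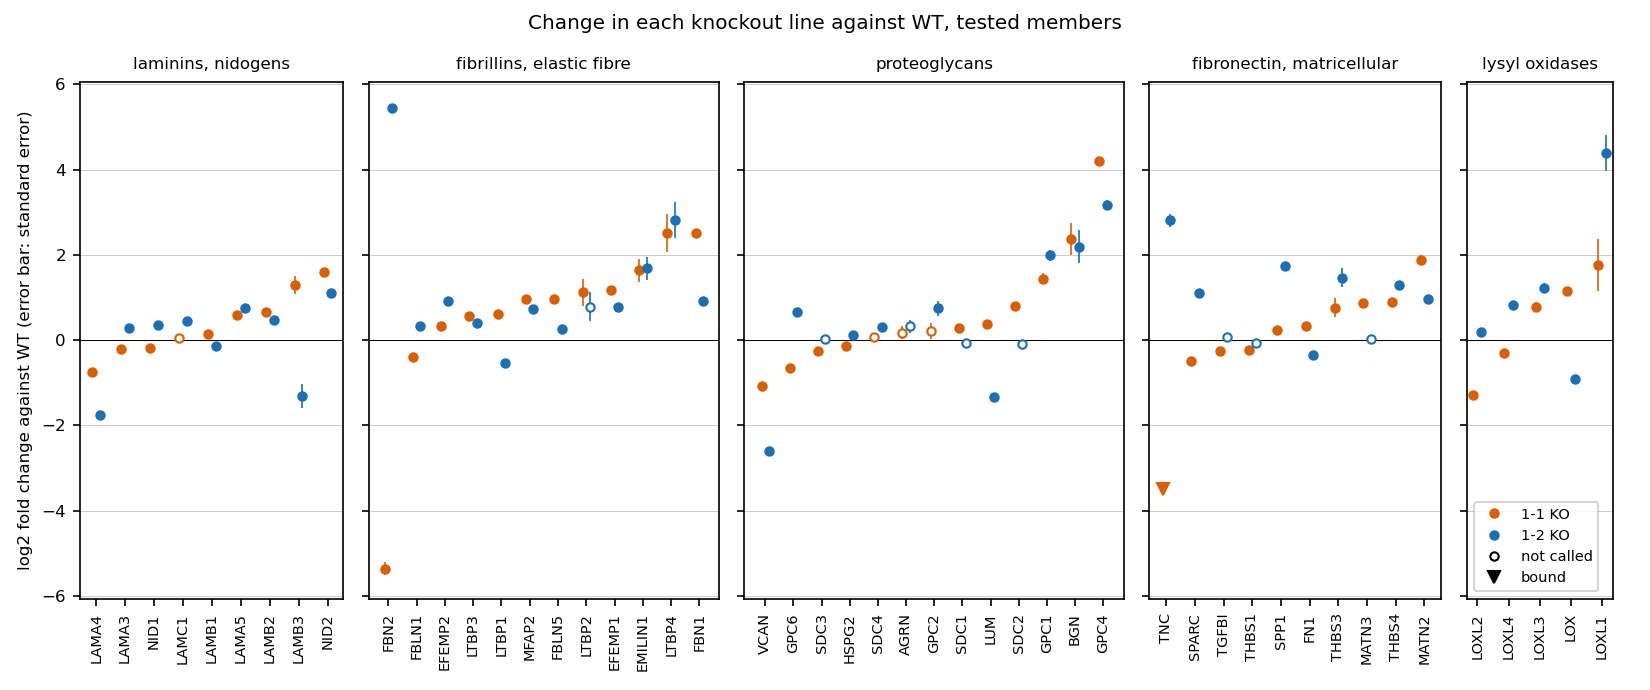
The log2 fold change of each of the 49 tested members against WT (vertical axis) in 1-1 KO (orange) and 1-2 KO (blue), by functional group, with standard errors, where filled points have an adjusted p under 0.05, and the triangle is a bound for TNC, which was at or under 1 count in every 1-1 KO library. FBN2 lies at -5.36 in 1-1 KO and at 5.45 in 1-2 KO, while most members stand above 0.

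Among laminins and nidogens, 9 of 12 genes were tested. In 1-1 KO 5 were higher and 3 lower than WT (32.5% and 30.9% of all genes), and in 1-2 KO 6 were higher and 3 lower (28.2% and 26.2%). The laminin alpha 4 chain fell in both lines, the alpha 5 chain rose in both, and the beta 3 chain and nidogen-1 each moved one way in 1-1 KO and the other way in 1-2 KO. LAMB1 was the highest of the group per transcript length at 161 ± 5.098 CPM per kb in WT (SD, n = 3), followed by NID1 (79.6 ± 3.61) and LAMC1 (62.8 ± 1.32), the first well above the others and the last of these also clear of its neighbours NID1 and LAMA5 (20.7 ± 3.47). The 5 alpha chain genes together reached 25.0 ± 3.45 CPM per kb in WT, 34.0 ± 1.24 in 1-1 KO and 37.3 ± 3.92 in 1-2 KO (SD, n = 3), far under the beta chains LAMB1, LAMB2 and LAMB3 together (178 ± 6.10, 204 ± 1.73 and 172 ± 7.21). LAMA5 made up 82.6% ± 2.35 of the alpha chain level in WT, 91.4% ± 0.387 in 1-1 KO and 93.3% ± 0.634 in 1-2 KO, and LAMA4 11.9% ± 1.65, 5.17% ± 0.289 and 2.35% ± 0.109.

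LAMA4 (ENSG00000112769, chr6:112107931-112254939, GRCh38), the alpha chain of vessel and muscle basement membranes, had 21.6, 21.1 and 20.99 CPM in the WT libraries, 11.8, 13.7 and 12.6 in 1-1 KO and 6.79, 6.33 and 5.86 in 1-2 KO. The 3 lines formed 3 separate ranges in that order. LAMA4 was 1.67-fold lower in 1-1 KO (log2 fold change -0.74, SE 0.0703, adjusted p = 4.59e-07) and 3.35-fold lower in 1-2 KO (log2 fold change -1.75, SE 0.0753, adjusted p = 1.68e-10), and it was also lower in 1-2 KO than in 1-1 KO (log2 fold change -1.0, SE 0.0767, adjusted p = 4.02e-08). LAMB3, the beta chain of epithelial laminins, was low throughout, with 0.754, 0.88 and 1.24 CPM in WT, 2.48, 2.07 and 2.402 in 1-1 KO and 0.285, 0.276 and 0.574 in 1-2 KO. Every 1-1 KO library was above and every 1-2 KO library below WT. The gene rose in 1-1 KO (log2 fold change 1.29, SE 0.212, adjusted p = 0.000101) and fell in 1-2 KO (log2 fold change -1.31, SE 0.288, adjusted p = 0.00142), and 1-2 KO was 6.101-fold below 1-1 KO (adjusted p = 3.58e-07).

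The nidogens, which link laminin to collagen IV, differed from each other. NID2 had 5.78, 5.12 and 6.43 CPM in WT, 17.6, 17.1 and 17.6 in 1-1 KO and 12.2, 12.7 and 12.5 in 1-2 KO, without overlap between lines. It rose 3.03-fold in 1-1 KO (log2 fold change 1.60, SE 0.0776, adjusted p = 4.65e-10) and 2.16-fold in 1-2 KO (log2 fold change 1.11, SE 0.079, adjusted p = 3.19e-08), and 1-2 KO stayed under 1-1 KO (log2 fold change -0.49, adjusted p = 2.99e-05). RTRAF on the other strand covers 30.7% of the exon length of NID2, and the strand setting of the counting is not given, so that reads of the pair may be mixed. NID1 was far more abundant, with 451, 447 and 485 CPM in WT, 405, 413 and 390.3 in 1-1 KO and 594, 587 and 584 in 1-2 KO. All 1-1 KO libraries lay below and all 1-2 KO libraries above WT. The fall in 1-1 KO was 1.14-fold (log2 fold change -0.19, SE 0.0385, adjusted p = 0.000514) and the rise in 1-2 KO 1.28-fold (log2 fold change 0.35, SE 0.0384, adjusted p = 2.58e-06). The 50 tested genes nearest to NID1 had a median log2 fold change of -0.33 in 1-1 KO, and relative to that median NID1 stood at 0.14.

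LAMB1, the beta chain of the most widespread laminins, had 943, 887 and 903 CPM in WT, 992, 1008 and 999 in 1-1 KO and 792, 868 and 846 in 1-2 KO. Its 3 ranges did not overlap but lay close. The rise in 1-1 KO was 1.097-fold (log2 fold change 0.13, SE 0.0395, adjusted p = 0.00866) and the fall in 1-2 KO 1.09-fold (log2 fold change -0.12, SE 0.0395, adjusted p = 0.0154). The latter call was lost without WT library 1 (log2 fold change -0.10, adjusted p = 0.0724) and with library size alone (adjusted p = 0.103). Of the remaining tested chains, LAMA5 stood 1.5-fold above WT in 1-1 KO and 1.68-fold above it in 1-2 KO, with an adjusted p of 0.141 between the knockouts, and LAMB2 1.58-fold and 1.396-fold. With DESeq2 on 2 lines and without a filter LAMA5 was called higher in 1-2 KO than in 1-1 KO (adjusted p = 0.0155 and 0.000546). LAMC1, the gamma chain common to most laminins, had 510.1, 495 and 490.1 CPM in WT, 516, 525 and 502 in 1-1 KO and 632, 704 and 699 in 1-2 KO, the last above all others. It rose in 1-2 KO (1.36-fold, adjusted p = 6.94e-07) and did not pass the test in 1-1 KO (log2 fold change 0.05, adjusted p = 0.363), but it was called there relative to its neighbouring genes (0.15, adjusted p = 0.00649) and with library size alone (0.10, adjusted p = 0.0384). LAMA3 was 1.16-fold below WT in 1-1 KO (adjusted p = 0.0106) and 1.21-fold above it in 1-2 KO (adjusted p = 0.00178), and the first call was lost without WT library 1 (adjusted p = 0.0521). LAMA5, with a GC-rich transcript, was highest within its line in WT library 3 (282 CPM) and in 1-2 KO library 1 (449 CPM), the libraries that stood apart.

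**Figure D2:**
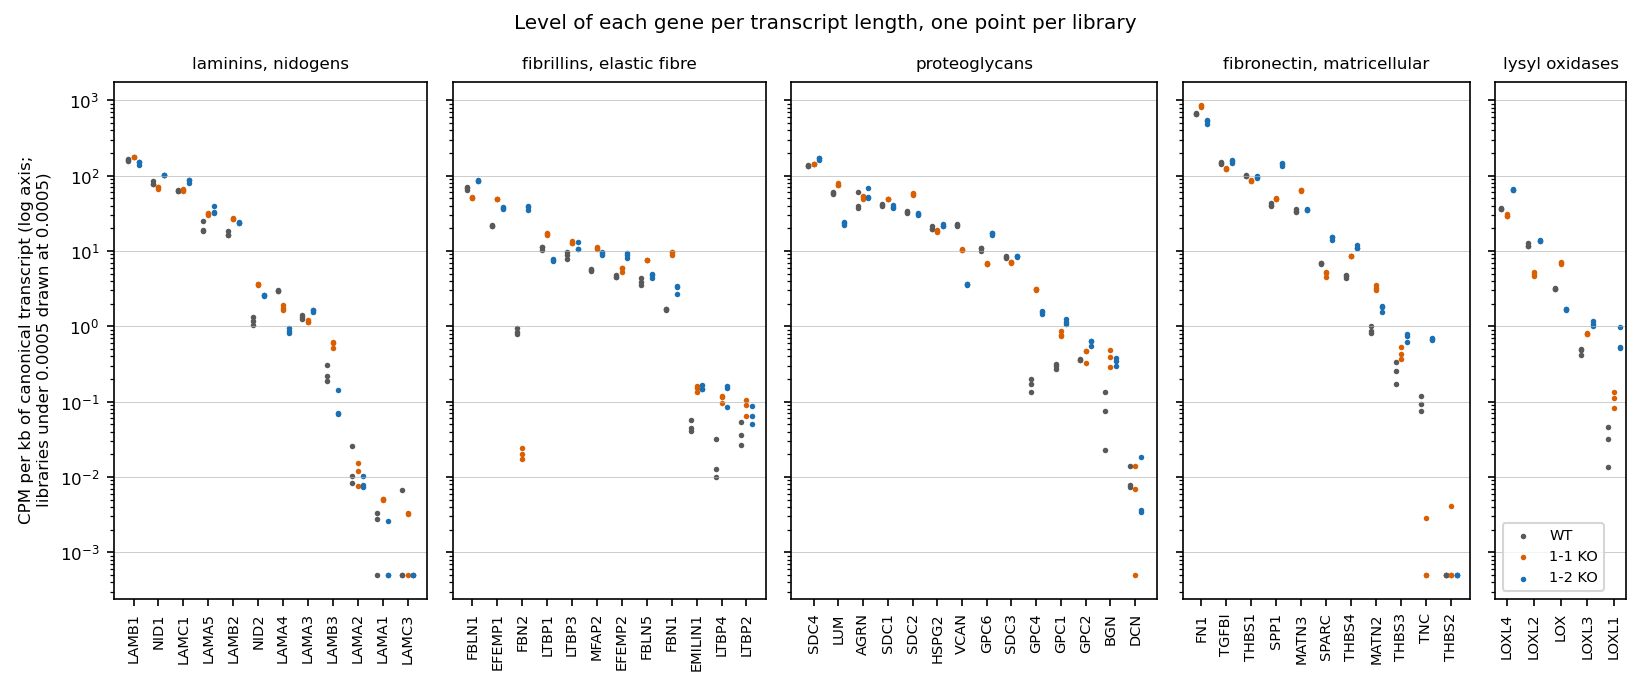
Level of each of the 54 members in CPM per kb of canonical transcript on a log axis, with 1 point for each of the 3 libraries of WT (grey), 1-1 KO (orange) and 1-2 KO (blue), ordered by the mean over libraries within each group. FN1 stands highest, between 524 and 841 CPM per kb as line means, and LAMA1, LAMA2, LAMC3, DCN and THBS2 lie at the bottom in every line.

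All 12 fibrillin and elastic-fibre genes were tested, and 10 of them were higher than WT in 1-1 KO (32.5% of all genes) and 10 in 1-2 KO (28.2%). FBN2 and FBLN1 fell in 1-1 KO, and LTBP1 fell in 1-2 KO, where LTBP2 did not pass the test. Their log2 fold changes had a median of 0.96 in 1-1 KO and of 0.78 in 1-2 KO. The balance between the fibrillins FBN1 and FBN2 differed from line to line. As a share of both genes per transcript length, FBN2 made up 34.1% ± 2.26 in WT, 0.218% ± 0.0368 in 1-1 KO and 92.4% ± 0.453 in 1-2 KO (SD, n = 3), while the sum of both rose from 2.52 ± 0.0465 CPM per kb in WT to 9.51 ± 0.554 in 1-1 KO and 40.8 ± 2.56 in 1-2 KO.

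FBN2 (ENSG00000138829, chr5:128257909-128659185), the fibrillin of embryonic microfibrils, had 8.67, 10.2 and 9.26 CPM in WT, 0.189, 0.268 and 0.221 in 1-1 KO and 384, 427 and 424 in 1-2 KO. The 1-1 KO values rest on 8, 11 and 9 counts. All 1-1 KO libraries were far below and all 1-2 KO libraries far above WT. The fall in 1-1 KO was 41.1-fold (log2 fold change -5.36, SE 0.149, adjusted p = 1.84e-12) and the rise in 1-2 KO was 43.8-fold (log2 fold change 5.45, SE 0.0632, adjusted p = 7.75e-16). Between the knockouts the difference was 1801-fold (log2 fold change 10.81, adjusted p = 3.65e-17). FBN1 (ENSG00000166147, chr15:48408313-48645721), the main fibrillin of adult tissue, had 19.5, 18.9 and 19.4 CPM in WT, 113, 114 and 103 in 1-1 KO and 31.4, 38.3 and 39.2 in 1-2 KO. Here 1-1 KO was highest, 1-2 KO intermediate and WT lowest, without overlap. FBN1 rose 5.72-fold in 1-1 KO (log2 fold change 2.52, SE 0.0745, adjusted p = 3.2e-12) and 1.88-fold in 1-2 KO (log2 fold change 0.91, SE 0.0761, adjusted p = 1.69e-07), and 1-2 KO was 3.03-fold below 1-1 KO (adjusted p = 1.06e-10).

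Fibulins bind elastin and microfibrils. FBLN1, the highest of the group per transcript length (67.8 ± 2.65 CPM per kb in WT), had 198, 189 and 204 CPM in WT, 146, 152 and 148 in 1-1 KO and 249, 244 and 254 in 1-2 KO, with 1-1 KO entirely below and 1-2 KO entirely above WT. It fell 1.32-fold in 1-1 KO (log2 fold change -0.41, SE 0.0368, adjusted p = 2.95e-07) and rose 1.26-fold in 1-2 KO (log2 fold change 0.34, SE 0.0365, adjusted p = 2.29e-06). EFEMP1 had 57.8, 60.8 and 58.5 CPM in WT, 134, 132 and 134 in 1-1 KO and 97.7, 103 and 102 in 1-2 KO. Both knockouts were above every WT library. The rise was 2.26-fold in 1-1 KO (log2 fold change 1.18, SE 0.0356, adjusted p = 3.91e-12) and 1.71-fold in 1-2 KO (log2 fold change 0.77, SE 0.0357, adjusted p = 3.44e-10). FBLN5, EFEMP2 and the microfibril protein MFAP2 also rose in both, by 1.95, 1.25 and 1.95-fold in 1-1 KO and by 1.21, 1.91 and 1.67-fold in 1-2 KO. FBLN5 was lower and EFEMP2 higher in 1-2 KO than in 1-1 KO (adjusted p = 1.36e-06 and 5.53e-06). The call of FBLN5 in 1-2 KO against WT was lost with DESeq2 on 2 lines (adjusted p = 0.0509).

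LTBP1, LTBP3 and LTBP4 code for proteins that tether latent TGF-beta to the matrix, whereas LTBP2 binds fibrillin without latent TGF-beta. LTBP1, the most abundant with LTBP3, rose 1.53-fold in 1-1 KO (adjusted p = 1.87e-08) and fell 1.45-fold in 1-2 KO (adjusted p = 1.45e-07). LTBP3 was 1.47-fold above WT in 1-1 KO (adjusted p = 5.22e-05) and 1.31-fold in 1-2 KO (adjusted p = 0.00143). Its transcript is GC-rich, and WT library 3 (47.3 CPM) and 1-2 KO library 1 (64.4 CPM) were the highest of their lines. Between the knockouts it was not called (adjusted p = 0.0929). Without 1-2 KO library 1 it was called lower in 1-2 KO (log2 fold change -0.28, adjusted p = 0.00211). The same held with DESeq2 on 2 lines, without a filter and relative to neighbouring genes (adjusted p = 0.048, 0.00486 and 0.0242). LTBP4 and LTBP2 were low. LTBP4 had 2, 6 and 2 counts in WT, 20, 24 and 23 in 1-1 KO and 34, 30 and 17 in 1-2 KO, which corresponds to 0.0503, 0.16 and 0.0634 CPM for WT, to 0.473, 0.584 and 0.564 for 1-1 KO and to 0.807, 0.753 and 0.424 for 1-2 KO. It was higher in every knockout library than in any WT library. The difference was called in 1-1 KO (log2 fold change 2.51, SE 0.437, adjusted p = 0.000168) and in 1-2 KO (log2 fold change 2.81, SE 0.421, adjusted p = 5.8e-05), and without WT library 2 these values became 3.19 and 3.49. LTBP2 had 0.301, 0.453 and 0.222 CPM in WT, 0.543, 0.754 and 0.882 in 1-1 KO and 0.736, 0.552 and 0.424 in 1-2 KO, where 1 library fell within the WT range. It was called in 1-1 KO (log2 fold change 1.13, SE 0.316, adjusted p = 0.00629) and not in 1-2 KO (log2 fold change 0.79, SE 0.329, adjusted p = 0.0566), although it was called in 1-2 KO without WT library 2 or 1-2 KO library 3, with library size alone and without a filter (adjusted p = 0.0297, 0.0312, 0.0452 and 0.048). The difference between both knockouts was not detectable (adjusted p = 0.302). EMILIN1, an elastic-fibre glycoprotein, had 0.176, 0.16 and 0.222 CPM in WT, 0.52, 0.632 and 0.588 in 1-1 KO and 0.57, 0.578 and 0.649 in 1-2 KO, above WT in all 6 knockout libraries. It rose by a log2 fold change of 1.64 (SE 0.276, adjusted p = 0.000128) in 1-1 KO and of 1.69 (SE 0.275, adjusted p = 0.000127) in 1-2 KO.

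Among 14 proteoglycan genes, 13 were tested. In 1-1 KO 6 were higher and 4 lower than WT (32.5% and 30.9% of all genes), and in 1-2 KO 7 were higher and 2 lower (28.2% and 26.2%). Versican fell and glypican-1 and glypican-4 rose in both lines, lumican and glypican-6 each moved one way in 1-1 KO and the other way in 1-2 KO, and no syndecan changed by as much as 2-fold. SDC4 was the highest of the group per transcript length in WT (136 ± 1.34 CPM per kb), followed by LUM (58.9 ± 2.23) and AGRN (45.8 ± 12.6), whose WT ranges overlap.

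VCAN (ENSG00000038427, chr5:83471618-83582303), a large chondroitin sulfate proteoglycan of provisional matrix, had 273, 279 and 261 CPM in WT, 129, 131 and 129 in 1-1 KO and 44.1, 44.97 and 44.9 in 1-2 KO. The lines formed 3 separate levels. VCAN was 2.09-fold lower in 1-1 KO (log2 fold change -1.07, SE 0.034, adjusted p = 6.78e-12) and 6.07-fold lower in 1-2 KO (log2 fold change -2.60, SE 0.0365, adjusted p = 2.64e-15), and the knockouts differed 2.9-fold (adjusted p = 1.98e-13). The 50 tested genes nearest to VCAN had median log2 fold changes of -0.37 and -0.27. LUM (ENSG00000139329, chr12:91102629-91111494), a small leucine-rich proteoglycan that binds collagen fibrils, had 159, 162 and 151 CPM in WT, 213, 204 and 202 in 1-1 KO and 59.9, 64.3 and 62.2 in 1-2 KO. All 1-1 KO libraries were above and all 1-2 KO libraries below WT. It rose 1.31-fold in 1-1 KO (log2 fold change 0.39, SE 0.0392, adjusted p = 8.53e-07) and fell 2.53-fold in 1-2 KO (log2 fold change -1.34, SE 0.0409, adjusted p = 4.75e-12). BGN, its relative biglycan, had 7, 2 and 10 counts in WT, 39, 47 and 28 in 1-1 KO and 38, 28 and 33 in 1-2 KO, which corresponds to 0.176, 0.0533 and 0.317 CPM for WT, to 0.922, 1.14 and 0.686 for 1-1 KO and to 0.902, 0.703 and 0.824 for 1-2 KO. All knockout libraries exceeded all WT libraries. Both differences were called, with log2 fold change 2.37, SE 0.377, adjusted p = 7.71e-05 in 1-1 KO and log2 fold change 2.19, SE 0.386, adjusted p = 0.000246 in 1-2 KO, and the first was 2.95 without WT library 3. Decorin (DCN), another of these small proteoglycans, had at most 5 counts in a library.

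Glypicans are heparan sulfate proteoglycans held in the membrane by a lipid anchor. GPC4 (ENSG00000076716, chrX:133300103-133415489) had 0.854, 0.987 and 0.666 CPM in WT, 15.6, 15.7 and 15.2 in 1-1 KO and 7.67, 7.99 and 7.16 in 1-2 KO, so that it was under 1 CPM in WT alone. It rose 18.3-fold in 1-1 KO (log2 fold change 4.19, SE 0.111, adjusted p = 1.18e-12) and 8.98-fold in 1-2 KO (log2 fold change 3.17, SE 0.117, adjusted p = 3.46e-11), and 1-2 KO stood 2.04-fold under 1-1 KO (adjusted p = 4.79e-08). GPC1 had 1.005, 1.09 and 1.17 CPM in WT, 2.79, 3.21 and 2.87 in 1-1 KO and 4.68, 3.99 and 4.29 in 1-2 KO, lowest in WT and highest in 1-2 KO without overlap. The rise was 2.72-fold in 1-1 KO (log2 fold change 1.44, SE 0.134, adjusted p = 3.68e-07) and 3.97-fold in 1-2 KO (log2 fold change 1.99, SE 0.129, adjusted p = 1.16e-08). GPC6 was 1.57-fold below WT in 1-1 KO (adjusted p = 1.59e-08) and 1.59-fold above it in 1-2 KO (adjusted p = 1.06e-08). GPC2 passed the test in 1-2 KO (1.68-fold higher) and not in 1-1 KO (log2 fold change 0.22, adjusted p = 0.322), where it was called relative to its neighbouring genes (log2 fold change 0.48, adjusted p = 0.0383).

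Syndecans are transmembrane proteoglycans that bind growth factors and matrix beside integrins. SDC4 had 356, 358 and 351 CPM in WT, 369, 372 and 373 in 1-1 KO and 420, 454 and 444 in 1-2 KO. The 1-1 KO libraries lay just above the WT range, and the 1-2 KO libraries well above both. The test gave log2 fold change 0.07, SE 0.035, adjusted p = 0.117 in 1-1 KO, which was not called, and log2 fold change 0.31, SE 0.035, adjusted p = 4.2e-06 in 1-2 KO. Its 50 nearest tested genes had a median log2 fold change of -0.31 in 1-1 KO, and relative to neighbours it was called higher there (log2 fold change 0.38, adjusted p = 5.6e-07). The call in 1-1 KO was also gained with library size alone, with at least 10 counts in every library, with 2 lines in the fit and without 1-2 KO library 1 (adjusted p = 0.00428, 0.0182, 0.0364 and 0.0377). Relative to neighbours the comparison of 1-2 KO with 1-1 KO turned from 0.24 to -0.31 while that of 1-2 KO with WT fell to 0.05, no longer called. SDC2 rose 1.75-fold and SDC1 1.21-fold in 1-1 KO, SDC3 fell 1.18-fold there (not called relative to its neighbouring genes, log2 fold change -0.07), and none of these 3 passed the test in 1-2 KO (log2 fold changes -0.06 for SDC1, -0.08 for SDC2 and 0.03 for SDC3). Relative to their neighbouring genes all 3 were called in 1-2 KO, with log2 fold changes of -0.19 for SDC1, -0.12 for SDC2 and 0.32 for SDC3 (adjusted p = 0.00151, 0.0153 and 1.46e-05). SDC1 and SDC2 were also called lower there without 1-2 KO library 1 (adjusted p = 0.0406 and 0.0418), and SDC2 without WT library 1 (adjusted p = 0.049). The 4 syndecans together had 218 ± 2.07 CPM per kb in WT, 255.5 ± 1.11 in 1-1 KO and 247 ± 4.27 in 1-2 KO (SD, n = 3).

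Perlecan (HSPG2) and agrin (AGRN) are the large heparan sulfate proteoglycans of basement membranes. HSPG2 was 1.097-fold lower in 1-1 KO (adjusted p = 0.0186) and 1.08-fold higher in 1-2 KO (adjusted p = 0.0416), where its libraries overlapped WT. Neither call was firm. The first was lost without WT library 3, 1-1 KO library 1 or 1-1 KO library 3 (adjusted p = 0.121, 0.0565 and 0.0747), and the second without any single library except WT library 3 and 1-2 KO library 3 (adjusted p = 0.0537 to 0.163) and in DESeq2 (0.0618). AGRN had 275, 289.8 and 441 CPM in WT, 388, 386 and 364 in 1-1 KO and 508, 379 and 373 in 1-2 KO. Within WT and within 1-2 KO, 1 library, of those that stood apart in GC-rich genes, was far above the other two. AGRN was not called in 1-1 KO (adjusted p = 0.308) or in 1-2 KO (adjusted p = 0.0766). Without WT library 3, the highest of WT, it was called higher in 1-1 KO (log2 fold change 0.43, adjusted p = 0.00342). The same fit called it higher in 1-2 KO (log2 fold change 0.55, adjusted p = 0.000655). Without a filter it was called higher in both (adjusted p = 0.000552 and 4.69e-12). Without 1-2 KO library 3 it was called higher in 1-2 KO (adjusted p = 0.0486). DESeq2 and the subtraction of neighbouring genes changed neither result. A fit without both libraries that stood apart was chosen after seeing the data, and it leaves out the highest AGRN value of WT and of 1-2 KO. In that fit AGRN was higher in 1-1 KO (log2 fold change 0.41, adjusted p = 8.7e-10) and in 1-2 KO (log2 fold change 0.40, adjusted p = 9.09e-09). These adjusted p-values therefore do not come from a planned test.

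The sugar chains of these proteins are made by a shared set of enzymes. Of 36 genes for heparan and chondroitin sulfate synthesis, 33 were tested. In 1-1 KO 18 were higher and 8 lower than WT (54.5% and 24.2%, all genes 32.5% and 30.9%). In 1-2 KO 21 were higher and 8 lower (63.6% and 24.2%, all genes 28.2% and 26.2%). Between 1-2 KO and 1-1 KO, 13 were higher and 12 lower (39.4% and 36.4%, all genes 33.1% and 32.2%). The lowest adjusted p in 1-1 KO belonged to CSGALNACT2, which starts chondroitin chains (3.42, 4.29 and 4.03 CPM in WT, 12.4, 12.3 and 12.3 in 1-1 KO and 11.7, 11.8 and 12.2 in 1-2 KO), which rose 3.16-fold there (log2 fold change 1.66, adjusted p = 7.16e-10). DSE, a dermatan sulfate epimerase, had 1.83, 1.87 and 1.71 CPM in WT, 7.42, 7.39 and 6.64 in 1-1 KO and 5.22, 4.37 and 5.49 in 1-2 KO, 3.95-fold higher in 1-1 KO than in WT (adjusted p = 2.96e-09). In 1-2 KO the lowest belonged to its paralog DSEL (1.21, 1.2 and 1.21 CPM in WT, 0.52, 0.535 and 0.539 in 1-1 KO and 8.29, 8.91 and 8.83 in 1-2 KO), which rose 7.19-fold (adjusted p = 2.86e-11), and to CHSY1, a chondroitin polymerase (5.78, 7.25 and 5.77 CPM for WT, 8.27, 8.49 and 9.22 for 1-1 KO and 29.1, 31.4 and 31.8 for 1-2 KO), which rose 4.90-fold (adjusted p = 4.04e-11). DSE was above every WT library in both knockouts, whereas DSEL was above WT in 1-2 KO and below WT in all 3 libraries of 1-1 KO.

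Of 11 fibronectin and matricellular genes, 10 were tested. In 1-1 KO 6 were higher and 4 lower than WT (32.5% and 30.9% of all genes), and in 1-2 KO 6 were higher and 1 lower (28.2% and 26.2%). Tenascin-C had at most 1 count in a 1-1 KO library and was raised in 1-2 KO, osteopontin and SPARC were highest in 1-2 KO, and fibronectin was highest in 1-1 KO and lowest in 1-2 KO. Median log2 fold changes were 0.28 in 1-1 KO and 1.03 in 1-2 KO.

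FN1 (ENSG00000115414, chr2:215360440-215436073), fibronectin, was the most abundant member in every line, with 5730, 5503 and 5569 CPM in WT, 6954, 7271 and 6938 in 1-1 KO and 4126, 4485 and 4589 in 1-2 KO. Per transcript length it stood at 668 ± 13.9 CPM per kb in WT (SD, n = 3), above LAMB1, the next member in WT. All 1-1 KO libraries were above and all 1-2 KO libraries below WT. FN1 rose 1.26-fold in 1-1 KO (log2 fold change 0.33, SE 0.0423, adjusted p = 8.83e-06) and fell 1.27-fold in 1-2 KO (log2 fold change -0.35, SE 0.0423, adjusted p = 7.79e-06). Another abundant member, TGFBI, an adhesion protein induced by TGF-beta, had 398, 389 and 414 CPM in WT, 330.2, 338 and 334 in 1-1 KO and 404, 431 and 435 in 1-2 KO, where only 1-1 KO was separate from WT. It fell 1.198-fold in 1-1 KO (log2 fold change -0.26, SE 0.0378, adjusted p = 3.27e-05) and was not called in 1-2 KO (log2 fold change 0.08, SE 0.0378, adjusted p = 0.0903). The 50 tested genes nearest to TGFBI had a median log2 fold change of 0.37 in 1-2 KO, and relative to them TGFBI stood at -0.29 (adjusted p = 2.11e-05). Without 1-2 KO library 1 it was called higher in 1-2 KO (log2 fold change 0.11, adjusted p = 0.0088).

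TNC (ENSG00000041982, chr9:115019575-115118207), tenascin-C, had 40, 24 and 25 counts in WT, 0, 1 and 0 in 1-1 KO and 244, 221 and 235 in 1-2 KO, which corresponds to 1.005, 0.64 and 0.792 CPM for WT, to 0, 0.0243 and 0 for 1-1 KO and to 5.79, 5.55 and 5.86 for 1-2 KO. It was at or under 1 count in each 1-1 KO library. Against a floor of 3 counts per library TNC was at least 11.2-fold lower in 1-1 KO than in WT (adjusted p = 9.35e-08), and it rose 7.003-fold in 1-2 KO (log2 fold change 2.81, SE 0.162, adjusted p = 3.53e-09). Against the same floor it was at least 79.2-fold higher in 1-2 KO than in 1-1 KO (adjusted p = 1.84e-11). FBN2 moved in the same directions, and the promoters of both are printed above.

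SPP1 (ENSG00000118785, chr4:87975667-87983532), the secreted phosphoprotein osteopontin, had 62.3, 68.7 and 64.6 CPM in WT, 75.8, 78.3 and 76.4 in 1-1 KO and 208, 221 and 228 in 1-2 KO. The 1-1 KO libraries were slightly and the 1-2 KO libraries far above WT. It rose 1.18-fold in 1-1 KO (log2 fold change 0.24, SE 0.045, adjusted p = 0.000372) and 3.36-fold in 1-2 KO (log2 fold change 1.75, SE 0.0448, adjusted p = 1e-12). Relative to its 50 nearest tested genes, the value in 1-1 KO was 0.0054, no longer called. SPARC, a collagen-binding glycoprotein, had 24.1, 23.2 and 23.9 CPM in WT, 18.1, 15.7 and 17.4 in 1-1 KO and 48.1, 52.8 and 53 in 1-2 KO, below WT in all 1-1 KO libraries and above it in all 1-2 KO libraries. It fell 1.39-fold in 1-1 KO (log2 fold change -0.48, SE 0.0623, adjusted p = 1.16e-05) and rose 2.16-fold in 1-2 KO (log2 fold change 1.11, SE 0.0592, adjusted p = 1.57e-09).

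Thrombospondins are secreted calcium-binding glycoproteins. THBS4 had 15.3, 14.96 and 13.9 CPM in WT, 27.5, 27.4 and 27.5 in 1-1 KO and 35.2, 38.2 and 35.4 in 1-2 KO, with no overlap between lines. It rose 1.86-fold in 1-1 KO (log2 fold change 0.89, SE 0.0551, adjusted p = 5.52e-09) and 2.46-fold in 1-2 KO (log2 fold change 1.30, SE 0.0546, adjusted p = 1.33e-10). THBS3 was low, with 0.804, 1.07 and 0.539 CPM in WT, 1.35, 1.65 and 1.15 in 1-1 KO and 2.33, 2.51 and 1.95 in 1-2 KO, also without overlap. The rise was 1.697-fold in 1-1 KO (log2 fold change 0.76, SE 0.227, adjusted p = 0.00905) and 2.77-fold in 1-2 KO (log2 fold change 1.47, SE 0.212, adjusted p = 4.06e-05). Genes on the other strand, among them MTX1, cover 29.1% of its exon length, and its 50 nearest tested genes had a median log2 fold change of -0.71 in 1-1 KO, relative to which it stood at 1.47. THBS1, by far the most abundant thrombospondin (99.9 ± 0.907 CPM per kb in WT), had 777, 772 and 786 CPM in WT, 654, 677 and 661 in 1-1 KO and 715, 770 and 754 in 1-2 KO, lowest in 1-1 KO. It fell 1.17-fold in 1-1 KO (adjusted p = 6.27e-05) and did not pass the test in 1-2 KO (log2 fold change -0.06, adjusted p = 0.17). Relative to its neighbouring genes, the value of THBS1 in 1-1 KO was -0.01 and no longer called, while that in 1-2 KO was -0.13 and called (adjusted p = 0.0083). THBS2 had 1 count in 1 library and 0 in the others.

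Matrilins are filament-forming adaptors. MATN2 had 4.15, 3.55 and 3.36 CPM in WT, 14.8, 13.5 and 12.6 in 1-1 KO and 6.34, 7.71 and 7.51 in 1-2 KO, highest in 1-1 KO and lowest in WT without overlap. It rose 3.69-fold in 1-1 KO (log2 fold change 1.88, SE 0.106, adjusted p = 2.18e-09) and 1.94-fold in 1-2 KO (log2 fold change 0.96, SE 0.111, adjusted p = 4.73e-06). MATN3, a cartilage matrilin, rose 1.84-fold in 1-1 KO (adjusted p = 2.25e-10) and was not called in 1-2 KO (log2 fold change 0.03, adjusted p = 0.512), where the libraries overlapped WT. The knockouts differed in both matrilins, each lower in 1-2 KO (log2 fold change -0.93 and -0.85, adjusted p = 1.11e-06 and 2.22e-10).

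**Figure D3:**
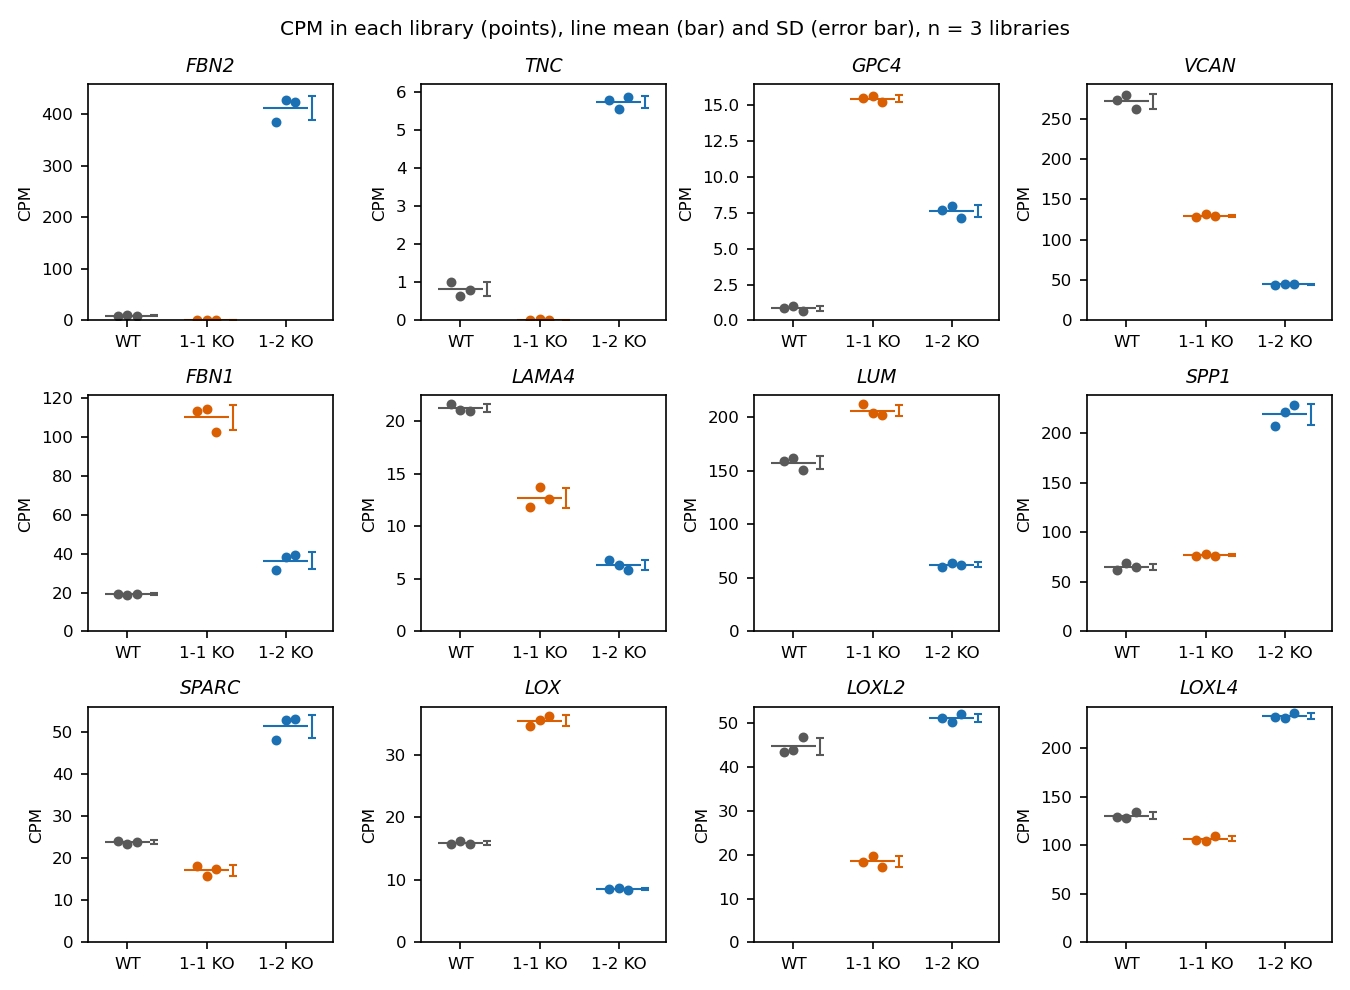
CPM of 12 members in each library (points) of WT (grey), 1-1 KO (orange) and 1-2 KO (blue), with the line mean (bar) and SD (error bar, n = 3 libraries), each panel on its own linear axis from 0. FBN2 and TNC are near 0 in 1-1 KO and highest in 1-2 KO, VCAN and LAMA4 step down from WT to 1-1 KO to 1-2 KO, and LOX and LOXL4 are highest in different knockouts.

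All 5 lysyl oxidases were tested and called in both lines, where 63.4% of all genes were called in 1-1 KO, 54.4% in 1-2 KO and 39% in both. LOX rose in 1-1 KO and fell in 1-2 KO, LOXL2 and LOXL4 did the reverse, so that the makeup of the family differed between lines while LOXL4 stayed its main member. Per transcript length the 5 genes together reached 51.9 ± 1.42 CPM per kb in WT, 42.5 ± 0.660 in 1-1 KO and 82.0 ± 0.967 in 1-2 KO (SD, n = 3), without overlap. LOXL4 made up 69.9% ± 0.199 of this in WT, 69.8% ± 0.941 in 1-1 KO and 79.1% ± 0.378 in 1-2 KO. LOXL2 made up 23.1% ± 0.370, 11.7% ± 0.891 and 16.7% ± 0.108, and LOX 6.03% ± 0.243, 16.4% ± 0.211 and 2.04% ± 0.0666. In WT the order of levels per kb was LOXL4 (36.3 ± 0.958), LOXL2 (12 ± 0.512), LOX (3.13 ± 0.0573), LOXL3 (0.464 ± 0.0453) and LOXL1 (0.0304 ± 0.016), each apart from the next by more than its SD.

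LOX (ENSG00000113083, chr5:122063195-122078413), the founding member of the family, had 15.7, 16.2 and 15.7 CPM in WT, 34.5, 35.6 and 36.2 in 1-1 KO and 8.52, 8.66 and 8.31 in 1-2 KO. Every 1-1 KO library was above and every 1-2 KO library below WT. It rose 2.23-fold in 1-1 KO (log2 fold change 1.16, SE 0.0508, adjusted p = 1.78e-10), fell 1.87-fold in 1-2 KO (log2 fold change -0.90, SE 0.0558, adjusted p = 7.32e-09) and was 4.17-fold lower in 1-2 KO than in 1-1 KO (adjusted p = 5.56e-13). LOXL2 (ENSG00000134013), which acts on collagen IV of basement membranes, had 43.3, 43.8 and 46.8 CPM in WT, 18.4, 19.7 and 17.3 in 1-1 KO and 51.2, 50.1 and 51.95 in 1-2 KO, lowest in 1-1 KO. It fell 2.42-fold in 1-1 KO (log2 fold change -1.27, SE 0.0536, adjusted p = 1.15e-10) and rose 1.15-fold in 1-2 KO (log2 fold change 0.20, SE 0.0504, adjusted p = 0.00455). LOXL4 (ENSG00000138131, chr10:98247690-98268194) had 129, 128 and 134 CPM in WT, 106, 105 and 110 in 1-1 KO and 232, 231 and 236 in 1-2 KO, again lowest in 1-1 KO. The fall in 1-1 KO was 1.22-fold (log2 fold change -0.29, SE 0.0347, adjusted p = 4.86e-06) and the rise in 1-2 KO 1.79-fold (log2 fold change 0.84, SE 0.0344, adjusted p = 9.94e-11).

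The other two were low. LOXL3 had 1.83, 1.52 and 1.77 CPM in WT, 2.93, 2.99 and 2.89 in 1-1 KO and 3.99, 3.69 and 4.29 in 1-2 KO, in separate ranges. It rose 1.72-fold in 1-1 KO (log2 fold change 0.78, SE 0.121, adjusted p = 6.14e-05) and 2.33-fold in 1-2 KO (log2 fold change 1.22, SE 0.118, adjusted p = 7.51e-07), and genes on the other strand, DOK1 and HTRA2, cover 25.5% of its exon length. LOXL1 had 3, 4 and 1 counts in WT, 11, 8 and 13 in 1-1 KO and 98, 50 and 49 in 1-2 KO, which corresponds to 0.0754, 0.107 and 0.0317 CPM for WT, to 0.26, 0.195 and 0.319 for 1-1 KO and to 2.33, 1.26 and 1.22 for 1-2 KO. The lines did not overlap, and library 1 of 1-2 KO, which stood apart in GC-rich genes, was the highest. LOXL1 was called higher in 1-1 KO (log2 fold change 1.77, SE 0.609, adjusted p = 0.0206) and in 1-2 KO (log2 fold change 4.39, SE 0.428, adjusted p = 8.44e-07). The call in 1-1 KO was lost without WT library 1, WT library 3 or 1-1 KO library 3 (adjusted p = 0.0521, 0.0697 and 0.0629). It was also lost with DESeq2 on 2 lines (adjusted p = 0.0679). The log2 fold change in 1-2 KO was 3.72 without both libraries that stood apart.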

How the data were processed

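The deposited values were raw counts of reads per Ensembl gene in 1 table of 9 libraries. Per the labels and the study's methods, the authors prepared libraries with the TruSeq stranded mRNA kit, sequenced read pairs on a NovaSeq, aligned them with STAR to the GRCh38 release named in the methods and counted genes with featureCounts, with tool versions and strand setting not given in the sources used here. Groups were taken from the genotype labels of the samples, and count columns were matched to samples by their descriptions and titles.

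Counts were normalized by TMM, genes with low counts were removed (minimum count 10, minimum total count 15), and all 9 libraries entered 1 quasi-likelihood fit (edgeR 4.0.16, R 4.3.3) with 3 contrasts. P-values were adjusted by Benjamini-Hochberg over 17207 genes with a threshold of 0.05. CPM used TMM-scaled library sizes, and levels per kb used the Ensembl canonical transcript of GENCODE 44, which holds 60463 of the 60664 identifiers. All comparisons between genes use that length. Totals of 32384469 to 41782387 counts set the precision, and the bound for TNC uses a floor of 3 counts per library, which covers counting error only. The fit was also run on simulated counts with a small set of genes changed in 1-1 KO alone and all others unchanged. Far more genes were called in these data, so that run does not test the scaling used here. Replicate numbers did not pair the libraries (correlations of same-numbered libraries between -0.168 and 0.0416).

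The members and lists were chosen with earlier results of these data known. Named are members with an absolute log2 fold change of at least 1 and an adjusted p under 0.05 against WT, and the 2 highest per kb in each group. LAMC1 and THBS1 replace LAMB1 and TGFBI when the length of all exons is used, so all 4 are given. Alternatives were DESeq2 1.42.0, other scalings and filters, fits of 2 lines, a replicate block, subtraction of the median of the 50 nearest genes, leaving out each library, and, chosen after seeing the data, leaving out both libraries that stood apart.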

Additional observations from a re-analysis of the deposited data

Results flagged for a closer look

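For 16 of the 49 tested members the calls against WT went in opposite directions in the 2 knockouts. The direct comparison of the 2 knockouts passed the test for these as well, but this adds no further evidence. Among all genes tested, 2012 had opposite calls, and the same 2012 passed the direct comparison. Of all 17207 genes tested, 11.7% met the same conditions. Both changes are measured against the same WT libraries, and the values below are the log2 fold change in 1-2 KO minus that in 1-1 KO. Those lower in 1-2 KO were LAMB1 (-0.26), LAMB3 (-2.61), LTBP1 (-1.15), LUM (-1.73), FN1 (-0.68) and LOX (-2.06). Those higher in 1-2 KO were LAMA3 (0.48) and NID1 (0.55), the elastic-fibre genes FBN2 (10.81) and FBLN1 (0.75), the proteoglycans HSPG2 (0.25) and GPC6 (1.32), the matricellular genes SPARC (1.59) and TNC (9.0) and the lysyl oxidases LOXL2 (1.47) and LOXL4 (1.13). The value of TNC is a fitted one with 1-1 KO near 0 counts and depends on the fit, so that only its bound is meaningful. HSPG2 in 1-2 KO overlapped WT, and both of its calls against WT were lost without certain single libraries. The call of LAMA3 in 1-1 KO and that of LAMB1 in 1-2 KO were lost without WT library 1 (adjusted p = 0.0521 and 0.0724), and relative to its neighbouring genes NID1 in 1-1 KO turned to 0.14, which ends its opposite direction.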

How the results depend on the processing

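Counts of members called higher or lower stayed within 1.5 times of those reported under every alternative run except the requirement of a 2-fold change, which left 13 higher and 4 lower in 1-1 KO, 14 and 4 in 1-2 KO and 8 and 8 between the knockouts. The median log2 fold change of the members in 1-1 KO was 0.346 with DESeq2 on 9 libraries, 0.345 with DESeq2 on 2 lines, 0.440 with library size alone, 0.346 without a filter, 0.351 with 10 counts in every library, 0.444 relative to neighbouring genes and 0.368 to 0.427 without single libraries. In 1-2 KO it was 0.360 with DESeq2 on 9 libraries, 0.384 with DESeq2 on 2 lines, 0.359 without a filter, 0.348 with 10 counts in every library, 0.408 relative to neighbours and 0.449 to 0.554 without single libraries. Between the knockouts it was 0.096 with DESeq2 on 2 lines, 0.0981 without a filter, 0.0816 to 0.221 without single libraries, 0.0798 without both libraries that stood apart, and it turned to -0.10 relative to neighbours, so its sign rests on the setting. The fit with a replicate block called 30 members higher and 15 lower in 1-1 KO, 32 and 8 in 1-2 KO and 23 and 19 between the knockouts. Relative to neighbours, NID1 in 1-1 KO turned to 0.14, TGFBI in 1-2 KO to -0.29, and between the knockouts TGFBI turned to -0.11, SDC4 to -0.31 and EMILIN1 to -0.17. Without single libraries the difference between knockouts ranged from -0.0303 to 0.11 for EMILIN1 and from -0.35 to 0.00796 for BGN. The cause was not tested. Of the named members' values under all alternatives, 1715 kept direction and call, 13 gained and 9 lost a call, and 8 turned. Of these 31 members, 24 were named for a called change of at least 2-fold, which favours kept calls. The tally leaves out the other members, among them HSPG2 and AGRN, whose calls changed under several alternatives. At this depth the 5 members left out of the test could not be compared, and the precision of LOXL1, LTBP4 and BGN is set by the few counts in WT. With 1 line per genotype, no setting separates a knockout from its clone.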

Other observations

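Cell-surface receptors bind the matrix proteins described above. Of 19 receptor genes, 18 were tested, with 10 higher and 7 lower than WT in 1-1 KO (all genes 32.5% and 30.9%), 10 higher and 5 lower in 1-2 KO (28.2% and 26.2%), and 11 higher and 6 lower in 1-2 KO against 1-1 KO (33.1% and 32.2%). ITGA2, an integrin chain for collagen and laminin, had 96.7, 104.2 and 97.3 CPM in WT, 42.0, 40.8 and 40.6 in 1-1 KO and 37.8, 41.7 and 38.1 in 1-2 KO, below every WT library in both knockouts. It fell 2.42-fold in 1-1 KO (adjusted p = 2.65e-11) and 2.54-fold in 1-2 KO (adjusted p = 1.86e-11). ITGA1, a collagen-binding chain, had 231, 237 and 232 CPM in WT, 115, 116 and 114 in 1-1 KO and 249, 273 and 267 in 1-2 KO. It fell 2.02-fold in 1-1 KO (adjusted p = 3.27e-11). CD47, a thrombospondin receptor, had 8.59, 8.05 and 6.72 CPM in WT, 13.3, 13.9 and 14.4 in 1-1 KO and 29.1, 32.4 and 30.3 in 1-2 KO, without overlap between lines, and was 3.91-fold higher in 1-2 KO than in WT (adjusted p = 9.84e-11).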
